A study of Mus musculus with 16 samples.

Results

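Wild-type mouse hearts under pressure overload were compared with sham-operated wild-type hearts, using every array whose label named the wild-type genotype. These were 8 of the 16 arrays of the series: 4 from left ventricles 28 days after transverse aortic constriction (TAC) and 4 from left ventricles 28 days after a sham operation. TAC is a surgical narrowing of the aorta that makes the left ventricle pump against a raised pressure. The other 8 arrays came from PPARalpha-/- mice, called knockout (KO) here, which lack the fatty acid-sensing receptor PPARalpha and had the same operations. They were used for the estimate of spread and as the comparison at the end. The labels give no strain, age or sex, and do not state that the arrays of a group came from separate animals, so p-values speak only of how far these samples scatter, and that scatter may be technical.

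When afterload rises, cardiac muscle cells enlarge and reactivate genes that are otherwise prominent in the fetal ventricle, among them natriuretic peptides and skeletal-type sarcomere isoforms. Fibroblasts deposit collagen and matricellular proteins around the muscle cells, and the heart's use of fatty acids and glucose is known to shift as hypertrophy proceeds towards failure. A ventricle that keeps its pump function under load is called compensated, and its expression changes are typically milder than those of a failing one.

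Signals are the scanner software's brightness values for a probe set, given per array in the order of replicates 1 to 4. Differences are on the log2 scale, TAC minus sham, with the standard error (SE) of a limma fit. A gene counted as called when its p, adjusted by the Benjamini-Hochberg method over the 10916 genes tested, was under 0.05. Every array had been scaled to the same trimmed mean of 500, and the median signal was 123.1 to 132.4 in sham and 124.8 to 163.0 in TAC hearts, with the highest value on TAC replicate 3. That array also had the lowest mean correlation with its group, 0.877, against 0.893 to 0.897 for the other TAC arrays and 0.915 to 0.920 among the sham arrays. The 18 probe sets of the hybridisation spike-ins detect bacterial and bacteriophage transcripts added in fixed amounts. Their mean log2 signal was 12.61 to 12.85 in sham and 12.91 to 13.36 in TAC, without overlap. Their ranges in the knockout groups, 12.68 to 13.16 in sham and 12.28 to 12.95 in TAC, overlapped. Only 4 arrays per group limit the precision of all values that follow.

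The wild-type response was small. None of the 10916 genes was called (0%), and the smallest adjusted p in the limma fit was 0.107, for Nppa. At an unadjusted p under 0.05, 469 genes were higher in TAC (4.30% of those tested) and 363 lower (3.33%), 832 in all (7.62%). With each array centred on its own median, which lowers the median difference of all genes from 0.00 to -0.12, that split became 139 higher and 641 lower. The median size of a difference was 0.14 on the log2 scale, 95% of genes differed by less than 0.57, and the median SE was 0.17. Differences over 1.5-fold were seen for 283 genes higher in TAC (2.59%) and 232 lower (2.13%), and differences over 2-fold were seen for 95 genes (0.870%). A difference over 1.5-fold with no overlap between the 4 TAC and 4 sham arrays was seen for 56 genes higher in TAC (0.513%) and 30 lower (0.275%). Without regard to size, 288 genes were higher without overlap (2.64%) and 179 lower (1.64%), and 5454 genes had a difference above 0 (50.0%). The shares in this paragraph are the background for the family counts that follow.

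**Figure D1:**
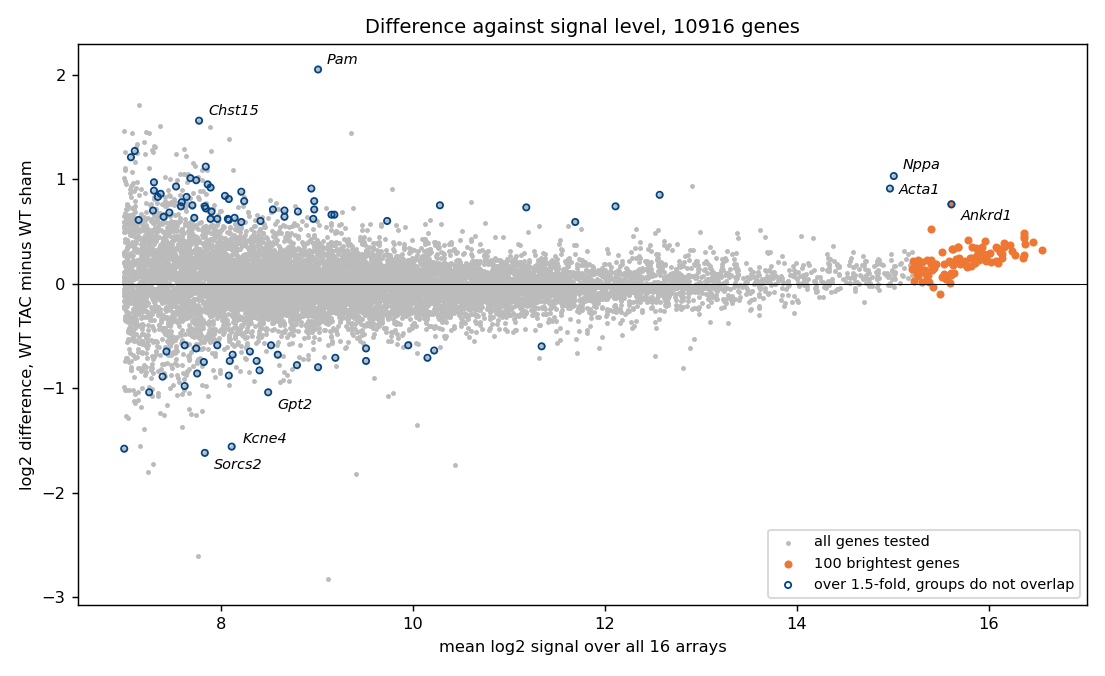
Each point is 1 of the 10916 genes, with its mean log2 signal over all 16 arrays on the x axis and its log2 difference between WT TAC and WT sham on the y axis. Ringed points are the genes over 1.5-fold apart whose groups do not overlap, 56 above and 30 below 0. The 100 brightest genes, filled in orange, lie above 0 in 98 cases, with a median of 0.22.

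Brightness moved with the group. Among the 100 brightest genes, 98 had a positive difference and the median was 0.22. After quantile normalization 37 were positive, with a median of -0.03, and in a fit that takes the mean spike-in signal of each array as a covariate 77 were positive, with a median of 0.04. Without TAC replicate 3 the figures were 97 and 0.16. Where one of these settings moves the difference of a gene named here by more than 1.5 times, its value stands beside the result. Centring the arrays on their medians lowers the family medians with that of all genes, and the medians of matricellular proteins, matrix proteases, integrins, calcium-handling, cell cycle, glycolysis and cytokine genes, all between 0.03 and 0.09 as deposited, were then between -0.09 and -0.03, against -0.12 over all genes.

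The natriuretic peptides and other fetal hypertrophy genes had, as deposited, the highest median of the 37 families, and the collagens other than the fibrillar ones came next. All 16 members tested, of 19 listed, had a positive difference, with a median of 0.35 against 0.00 over all genes. In this family 7 members were at an unadjusted p under 0.05 and higher (4.30% of all genes were), 6 were higher without overlap (2.64%), and none was called. The median was 0.34 after quantile normalization, 0.23 with the spike-in covariate and 0.29 without TAC replicate 3, where the other collagens stood at 0.34, 0.29 and 0.33, level with it or above it. The proximal promoters of 4 of these genes are shown as examples from the family. Each is the 250 bases before the annotated start on the gene's own strand, from RefSeq on GRCm38.p6. The windows are chr4:148000472-148000721 (plus strand) for Nppa, chr4:147985650-147985899 (plus) for Nppb, chr19:36119845-36120094 (minus) for Ankrd1 and chr8:123894776-123895025 (minus) for Acta1. Capitals mark matches, on either strand, to CATTCC (the core of the MCAT element, bound by TEAD factors), GATAA (the core bound by GATA factors), TATAAA with its variant TATATA (the TATA box) and the CArG box bound by serum response factor.
Nppa: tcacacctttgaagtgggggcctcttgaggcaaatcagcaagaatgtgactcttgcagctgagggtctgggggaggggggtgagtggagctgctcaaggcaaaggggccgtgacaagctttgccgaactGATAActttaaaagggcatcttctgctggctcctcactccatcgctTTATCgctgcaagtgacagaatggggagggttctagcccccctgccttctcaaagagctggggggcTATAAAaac
Nppb: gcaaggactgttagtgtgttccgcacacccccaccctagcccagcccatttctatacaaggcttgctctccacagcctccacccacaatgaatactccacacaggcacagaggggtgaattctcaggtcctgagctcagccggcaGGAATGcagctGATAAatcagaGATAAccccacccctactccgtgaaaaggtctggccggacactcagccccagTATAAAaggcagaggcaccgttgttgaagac
Ankrd1: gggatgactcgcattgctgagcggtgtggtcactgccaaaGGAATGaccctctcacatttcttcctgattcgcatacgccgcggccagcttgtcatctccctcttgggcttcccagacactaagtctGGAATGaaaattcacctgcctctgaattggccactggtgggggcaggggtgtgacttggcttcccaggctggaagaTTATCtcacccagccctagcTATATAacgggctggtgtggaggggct
Acta1: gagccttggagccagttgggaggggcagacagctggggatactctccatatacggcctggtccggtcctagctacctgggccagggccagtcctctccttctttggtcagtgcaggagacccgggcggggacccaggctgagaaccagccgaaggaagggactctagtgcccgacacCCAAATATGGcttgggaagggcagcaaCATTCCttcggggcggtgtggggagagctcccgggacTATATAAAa

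Nppa held 2 GATAA matches and a TATA box, Nppb held 1 CATTCC and 2 GATAA matches, and Ankrd1 held 2 CATTCC and 1 GATAA match. Acta1 held 1 CATTCC match and the CArG box, and its 2 TATA matches overlap. Of 32851 promoter windows of this length, 12.6% held CATTCC, 22.6% GATAA, 11.5% a TATA match and 1.47% a CArG box. A match describes the letters and was not tied to any factor by these data.

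Nppa encodes atrial natriuretic peptide, a hormone that promotes salt excretion and relaxes vessels. Its signals were 23588, 20038, 17816 and 15482 in sham hearts and 32398, 42485, 48346 and 33651 in TAC hearts. All TAC arrays lay above all sham arrays. The difference was 1.03 ± 0.16 (SE), or 2.04-fold, with an adjusted p of 0.107 in the limma fit. It was 0.90 after quantile normalization, 0.82 with the spike-in covariate and 0.92 without TAC replicate 3. It was called under 3 other settings: with 60% of genes left out as dim (adjusted p = 0.0240), with limma's trend and robust options (0.00441) and without sham replicate 1 (0.0316). Adjacent to it on chromosome 4, Nppb encodes the B-type peptide used as a blood marker of cardiac strain. Nppb read 40822, 34701, 29896 and 36879 in sham and 49839, 50521, 64592 and 40218 in TAC. Only TAC replicate 4 fell inside the sham range. The difference was 0.52 ± 0.16, 1.43-fold, with an adjusted p of 0.580. It was 0.33 after quantile normalization and 0.29 with the spike-in covariate.

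Ankrd1, a stretch-responsive ankyrin-repeat protein of the sarcomere and nucleus, read 33466, 36448, 37821 and 35820 in sham and 58594, 47351, 88066 and 55684 in TAC. The sham arrays were tightly grouped and the TAC arrays spread widely above them. The difference was 0.76 ± 0.17, 1.69-fold (adjusted p = 0.484), with 0.54 after quantile normalization, 0.47 with the spike-in covariate and 0.58 without TAC replicate 3. Acta1, skeletal alpha-actin, read 32579, 21306, 28129 and 16248 in sham and 54268, 32765, 66967 and 32772 in TAC. The groups did not overlap, but the lowest TAC array stood barely above the highest sham array. The difference was 0.91 ± 0.30, 1.87-fold (adjusted p = 0.585), and 0.48 with the spike-in covariate.

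The myosin heavy chains and the calcineurin readout moved less clearly. Myh7, the slow fetal isoform, read 1430, 1228, 2039 and 829 in sham and 1982, 1320, 3089 and 1698 in TAC. Its groups overlapped, at 0.55 ± 0.41, and at 0.32 without TAC replicate 3. Myh6, the adult fast isoform that is known to decline in overloaded rodent hearts, read 67047, 75015, 76694 and 82291 in sham and 84130, 82912, 109169 and 87377 in TAC. Its TAC arrays all lay above its sham arrays, at 0.27 ± 0.12, but the difference was -0.08 after quantile normalization, 0.04 with the spike-in covariate and 0.18 without TAC replicate 3, and a second probe set gave -0.36 ± 0.21, so its direction is not settled. Rcan1, an inhibitor of calcineurin that calcineurin itself induces, read 5506, 4146, 3877 and 4820 in sham and 5003, 6254, 7196 and 4772 in TAC. The groups overlapped, at 0.33 ± 0.18. Fhl1, a LIM protein that senses stretch, overlapped as well, at 0.22 ± 0.15, and its other probe set gave -0.08 ± 0.71.

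**Figure D2:**
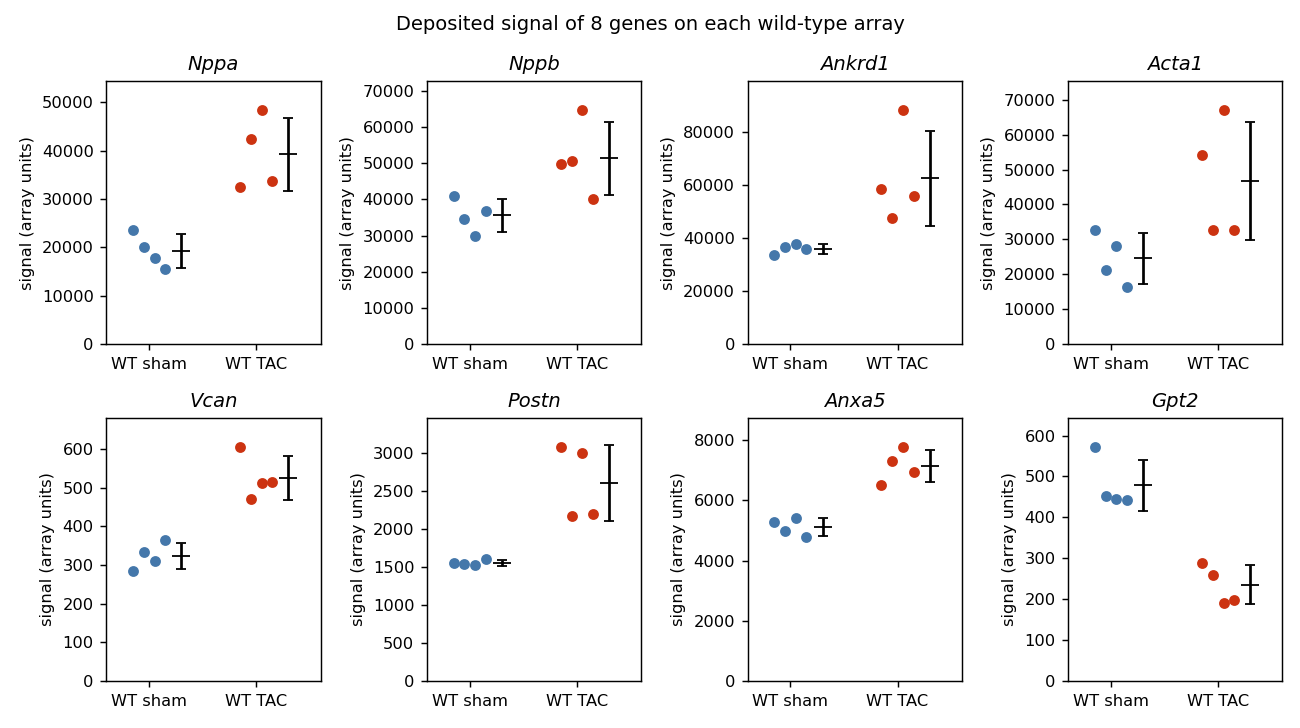
Deposited signal (y axis, array units, from 0) of 8 genes on each WT sham array (blue) and WT TAC array (red), with the group mean and SD of the 4 signals beside the points. In every panel but that of Nppb the groups do not overlap, with Gpt2 lower and the other genes higher in TAC. The TAC arrays of Nppa range from 32398 to 48346 and the sham arrays from 15482 to 23588.

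Sarcomere proteins were higher on the arrays as deposited, and that difference shrank with normalization. Of 23 members tested, of 25 listed, 19 were positive, 12 were at an unadjusted p under 0.05 and higher (4.30% of all genes were), 11 were higher without overlap (2.64% of all genes), and the median was 0.26. After quantile normalization 15 were positive and the median was 0.06. The median was 0.15 with the spike-in covariate and 0.19 without TAC replicate 3. The list holds both the ventricular and the atrial isoforms, and its mean over members on each array, relative to sham, was 0.21, -0.23, 0.31 and 0.02 in TAC against -0.14, 0.14, 0.19 and -0.19 in sham, with overlap.

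Myl2, the ventricular regulatory light chain, read 71425, 72558, 76189 and 84447 in sham and 91503, 89101, 140526 and 104063 in TAC. The highest value was again on TAC replicate 3. The difference of 0.46 ± 0.14 (adjusted p = 0.580) became 0.08 after quantile normalization and 0.21 with the spike-in covariate. Tnnc1, the calcium-binding troponin subunit, differed by 0.35 ± 0.11, by 0.06 after quantile normalization and by 0.14 with the covariate. Myoz2, a Z-disc protein that binds calcineurin, went from 0.35 ± 0.10 to 0.08 and 0.18 in the same way.

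The list of Z-disc, costamere and stretch-responsive proteins had 25 members tested of 27, with 21 positive, 6 higher and 1 lower at an unadjusted p under 0.05 (4.30% and 3.33% of all genes), 9 higher without overlap (2.64%) and a median of 0.18 (0.08 after quantile normalization). Nrap anchors actin filaments at the intercalated disc. It read 5801, 5130, 6123 and 5856 in sham and 7489, 6511, 9489 and 6619 in TAC, without overlap, and its difference was 0.38 ± 0.13 as deposited (adjusted p = 0.585), 0.39 after quantile normalization, 0.22 with the spike-in covariate and 0.26 without TAC replicate 3.

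Calcium-handling genes had a median of 0.06 (-0.01 after quantile normalization) over 21 members tested of 24. Of these, 13 were positive and 4 higher at an unadjusted p under 0.05 (4.30% of all genes). Atp2a2, the calcium pump of the sarcoplasmic reticulum, read 60097, 64961, 69033 and 74158 in sham and 80460, 76702, 109668 and 87007 in TAC. Its TAC arrays were all higher, by 0.39 ± 0.13, but the difference was 0.05 after quantile normalization and 0.15 with the covariate, and the mean of its probe sets differed by 0.00. Pln, the pump's inhibitor phospholamban, differed by 0.34 ± 0.11, by 0.03 after quantile normalization and by 0.15 with the covariate. Casq2, the calcium buffer calsequestrin, differed by 0.25 ± 0.10 and by 0.15. None of these was called (adjusted p of 0.585 for Atp2a2 and Pln, 0.618 for Casq2).

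Potassium and sodium channels had a median of -0.16, the lowest as deposited, and immediate early genes came next at -0.15. Both were at -0.13 after quantile normalization, and at -0.13 and -0.17 without TAC replicate 3. Of 16 channel genes tested, of 22 listed, 4 were positive. At an unadjusted p under 0.05, 3 were lower (3.33% of all genes) and none higher. Kcnd2 encodes a pore subunit of the transient outward potassium current that shortens the rodent action potential. It read 751, 759, 668 and 726 in sham and 647, 578, 477 and 481 in TAC. The groups did not overlap, at -0.42 ± 0.17, 1.34-fold lower (adjusted p = 0.621). Kcnv2, a silent subunit that modifies other potassium channels, differed by -0.51 ± 0.21 with overlap, and by -0.28 with the spike-in covariate. Kcnj3, a subunit of the acetylcholine-gated potassium channel, differed by -0.61 ± 0.20 with overlap. The mean of the Kcnj3 probe sets gave 0.17. Its dimmer probe sets gave 0.19 ± 0.22, -0.41 ± 0.25 and 1.52 ± 0.66, so its direction is not settled.

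Collagen and matrix genes were mostly positive as deposited, and fewer of them were with centred arrays. With centring, 11 of 20 fibrillar collagen genes, 9 of 12 other collagens, 9 of 22 matricellular genes, 10 of 19 proteoglycans and 11 of 22 elastic fibre and basement membrane genes stayed above 0, with medians of 0.04, 0.20, -0.03, 0.01 and 0.00, against -0.12 over all genes. Collagens other than the fibrillar ones had 11 of 12 tested positive, of 18 listed, with 4 higher at an unadjusted p under 0.05 (4.30% of all genes) and a median of 0.32. The median was 0.34 after quantile normalization, 0.29 with the spike-in covariate and 0.33 without TAC replicate 3. Col4a2, a chain of the basement membrane network, read 5014, 4090, 4763 and 5448 in sham and 6111, 6842, 7727 and 6838 in TAC. The groups did not overlap, and the difference was 0.51 ± 0.14, 1.43-fold (adjusted p = 0.484). Its partner chain Col4a1, transcribed from the same bidirectional promoter, differed by 0.49 ± 0.18 with overlap. Col4a3 read 140, 71.3, 51.6 and 33.9 in sham and 275, 233, 93.3 and 94.3 in TAC. Only the highest sham array reached the TAC range, and the difference was 1.25 ± 0.50 (adjusted p = 0.621). Col8a1, a short-chain collagen of remodelling tissue, differed by 0.43 ± 0.19.

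Fibrillar collagens and their processing enzymes had 12 of 20 tested positive, of 27 listed, 3 higher at an unadjusted p under 0.05 and a median of 0.16. Col1a1, a chain of type I collagen, read 1445, 802, 865 and 818 in sham and 1672, 1450, 1610 and 1699 in TAC. The groups did not overlap, but sham replicate 1 lay next to the TAC arrays, and the difference was 0.75 ± 0.37 (adjusted p = 0.667). It was 0.17 with the spike-in covariate. Its partner chain Col1a2 differed by 0.38 ± 0.17, and Col3a1 by 0.32 ± 0.18 (0.18 with that covariate), both with overlap. A second probe set of Col3a1 gave 0.00 ± 0.22. Col5a2 read 1220, 905, 1213 and 947 in sham and 1951, 1620, 1521 and 1049 in TAC. Only TAC replicate 4 lay inside the sham range, and the difference was 0.50 ± 0.17, while a second probe set gave -0.31 ± 0.54. Col5a1, which with Col5a2 helps start type I fibrils, differed by 0.42 ± 0.16.

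Matricellular proteins, secreted regulators that sit in the matrix, had 16 of 22 tested positive, of 29 listed, and a median of 0.09. Of these, 5 were higher and 1 lower at an unadjusted p under 0.05 (4.30% and 3.33% of all genes). Postn, the periostin of activated fibroblasts, read 1557, 1539, 1522 and 1610 in sham and 3083, 2167, 3001 and 2194 in TAC. The sham arrays were nearly equal and all TAC arrays were higher, by 0.73 ± 0.20, 1.65-fold (adjusted p = 0.542). Sparc, a collagen-binding protein, read 15038, 14463, 13737 and 14688 in sham and 18878, 18080, 24430 and 17789 in TAC, also without overlap, at 0.44 ± 0.11 (adjusted p = 0.484), with 0.27 under the spike-in covariate and 0.22 for the mean of its probe sets.

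Fstl1, a secreted glycoprotein of fibroblasts and muscle cells, differed by 0.55 ± 0.19 with overlap, and by 0.36 with the covariate. Ccn2, connective tissue growth factor, read 4897, 4847, 3925 and 3661 in sham and 4767, 4528, 10872 and 3782 in TAC. TAC replicate 3 alone was high, and the difference of 0.34 ± 0.27 was 0.01 without it.

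Proteoglycans had 14 of 19 tested positive, of 27 listed, with 2 higher and 2 lower at an unadjusted p under 0.05 and a median of 0.13. Vcan encodes versican, a large hyaluronan-binding proteoglycan of provisional matrix. It read 284, 334, 310 and 365 in sham and 605, 471, 512 and 514 in TAC. No array overlapped, and the difference of 0.70 ± 0.13, 1.63-fold, had an adjusted p of 0.249. It was 0.68 to 0.71 under quantile normalization, the spike-in covariate and the removal of TAC replicate 3. Cd44, the cell-surface receptor for hyaluronan, read 340, 360, 442 and 407 in sham and 742, 830, 445 and 573 in TAC, without overlap though TAC replicate 3 was within a few units of sham, at 0.71 ± 0.25 (adjusted p = 0.585). Fmod, the collagen-binding fibromodulin, went the other way. Its dim signals were 168, 111, 198 and 166 in sham and 82.4, 30.4, 111 and 27.9 in TAC, at -1.58 ± 0.55, and a setting without the less specific probe sets turned it to 0.16.

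Elastic fibre and basement membrane proteins had 14 of 22 tested positive, of 26 listed, with 4 higher at an unadjusted p under 0.05 and a median of 0.12. Mfap5, a microfibril glycoprotein, read 3407, 2620, 2811 and 2134 in sham and 4895, 4290, 3592 and 2985 in TAC. Its groups overlapped, at 0.52 ± 0.21. Lama4, a laminin chain of muscle and vessel basement membrane, differed by 0.33 ± 0.11, and Efemp1, a fibulin, by 0.42 ± 0.16, both with overlap. Members of TGF-beta and BMP signalling were balanced, with 15 of 27 tested positive, of 31 listed, and a median of 0.00. The ligand Tgfb2 differed by 0.60 ± 0.25 with overlap, and by 0.32 with the spike-in covariate. The inhibitory Smad7 read 513, 442, 463 and 528 in sham and 360, 379, 140 and 436 in TAC, lower without overlap, at -0.68 ± 0.26, and at -0.31 without TAC replicate 3.

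Matrix proteases and their inhibitors had 17 of 27 tested positive, of 35 listed, and a median of 0.09. Timp1, a secreted inhibitor of metalloproteinases, read 296, 382, 279 and 323 in sham and 514, 431, 670 and 468 in TAC. All TAC arrays were higher, by 0.69 ± 0.36 (adjusted p = 0.680), and the difference was 0.20 with the spike-in covariate. Htra1, a serine protease that cleaves matrix proteins, differed by -0.25 ± 0.11 with overlap. Ltbp2, a latent TGF-beta binding protein family member of microfibrils, differed by 0.26 ± 0.35 (0.16 after quantile normalization), with TAC replicate 4 at 310 and the other TAC arrays at 167 to 175.

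Genes of the cytoskeleton and of membrane-binding proteins were mostly positive as deposited. Actin and microtubule genes had 26 of 32 tested positive, of 38 listed, and a median of 0.16 (0.13 after quantile normalization). Of these, 7 were higher at an unadjusted p under 0.05 (4.30% of all genes) and 6 higher without overlap (2.64%). With centred arrays 18 were positive, with a median of 0.04. Vim, the intermediate filament protein of mesenchymal cells, read 8289, 8600, 8922 and 8688 in sham and 11326, 12818, 12956 and 9850 in TAC, without overlap, at 0.44 ± 0.12 (adjusted p = 0.554), and at 0.28 with the spike-in covariate. Capg, an actin filament capping protein, differed by 0.55 ± 0.20, and the cofilin Cfl2 by 0.25 ± 0.09, both without overlap. The means of their probe sets were lower, at 0.29 and 0.12.

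Annexins and S100 proteins, which bind calcium and membranes, had 13 of 15 tested positive, of 20 listed, with a median of 0.16, and 10 positive with a median of 0.04 when arrays were centred. Anxa5 read 5290, 4972, 5408 and 4793 in sham and 6523, 7323, 7775 and 6930 in TAC. The groups were well apart and each had a small spread, and the difference was 0.48 ± 0.09, 1.39-fold (adjusted p = 0.399). It was 0.48 after quantile normalization, 0.42 with the spike-in covariate and 0.44 without TAC replicate 3. Anxa2 differed by 0.37 ± 0.12 with overlap, and -0.15 by the mean of its probe sets. Anxa4 differed by -0.24 ± 0.11, and by -0.03 for that mean. Integrins and focal adhesion genes had 17 of 27 tested positive, of 33 listed, and a median of 0.05. Their collagen receptor subunit Itga1 read 420, 429, 367 and 337 in sham and 571, 627, 431 and 513 in TAC, higher without overlap, at 0.46 ± 0.14.

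**Figure D3:**
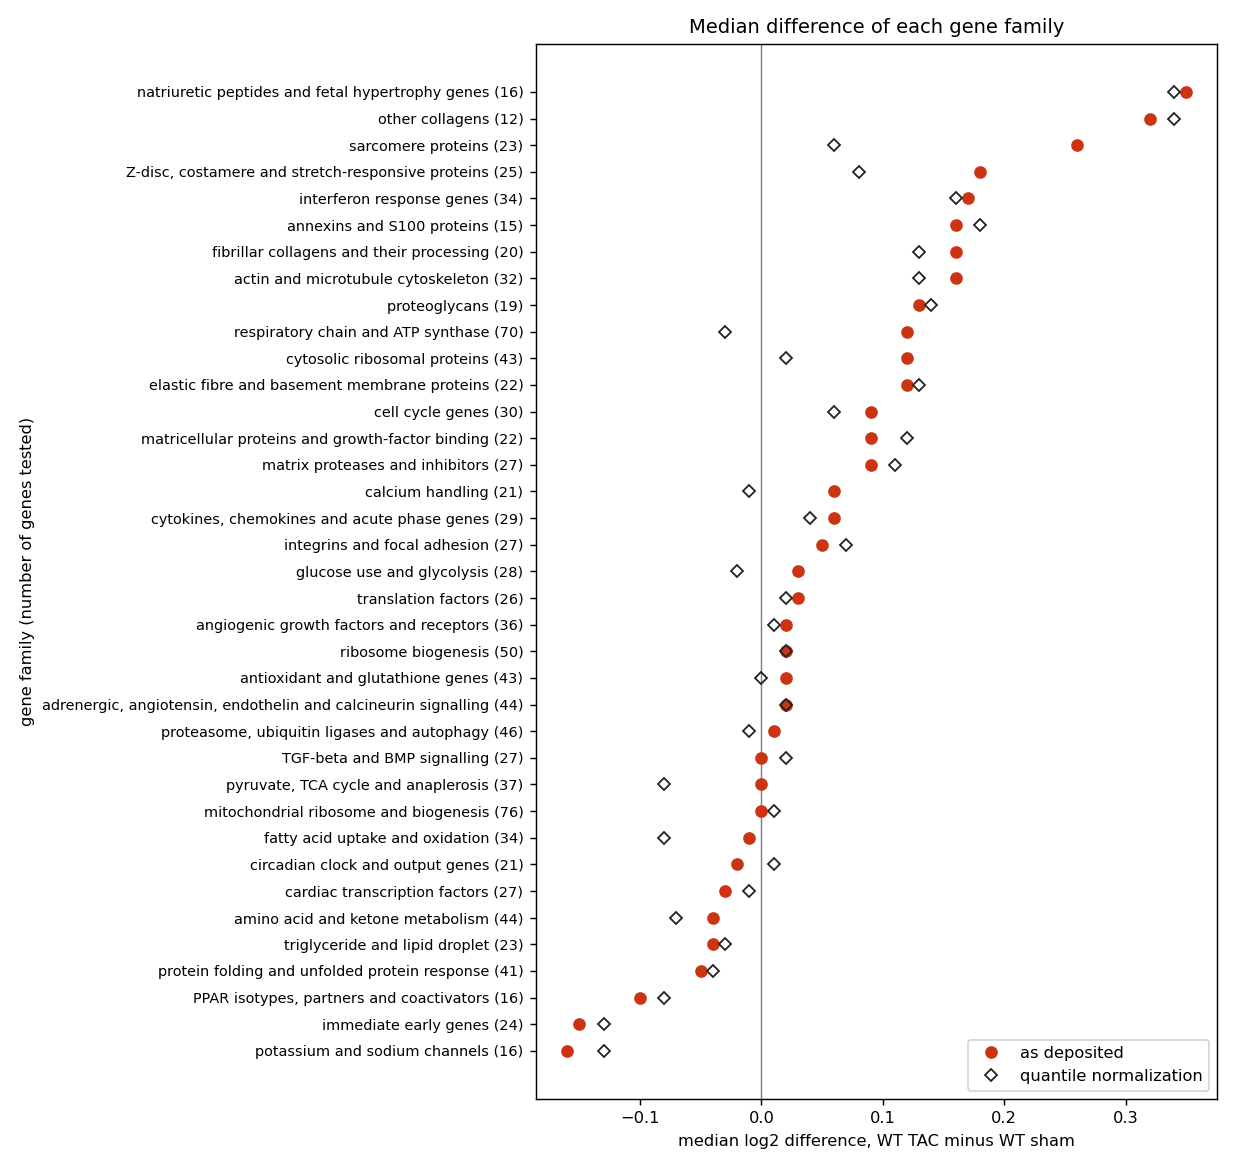
Median log2 difference between WT TAC and WT sham (x axis) of each of the 37 gene families (y axis, with the number of genes tested), as deposited (red circles) and after quantile normalization (open diamonds). Natriuretic and fetal genes stand at 0.35 and 0.34 and other collagens at 0.32 and 0.34, while sarcomere proteins go from 0.26 to 0.06 and the respiratory chain from 0.12 to -0.03.

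Fuel metabolism differed little. Genes of fatty acid uptake and oxidation, the main fuel route of the adult heart, had 16 of 34 tested positive, of 40 listed, and a median of -0.01, or 9 positive and -0.08 after quantile normalization. At an unadjusted p under 0.05, 2 were higher (4.30% of all genes) and none lower. Fabp3, the heart's fatty acid-binding protein, read 69932, 72552, 77702 and 74075 in sham and 85269, 78850, 97056 and 88696 in TAC. It did not overlap, at 0.25 ± 0.09, but the difference was -0.10 after quantile normalization and 0.12 with the spike-in covariate. Hadh, a dehydrogenase of beta-oxidation, read 61268, 62845, 62878 and 63710 in sham and 68107, 67830, 77046 and 74785 in TAC. The difference was 0.20 ± 0.09 without overlap, -0.10 after quantile normalization, 0.10 with the covariate and -0.03 for the mean of its probe sets. Triglyceride and lipid droplet genes had 9 of 23 tested positive, of 25 listed, and a median of -0.04. Lpl, the lipase that releases fatty acids from circulating lipoproteins, differed by 0.37 ± 0.12 without overlap, by 0.04 after quantile normalization and by 0.14 with the covariate.

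PPAR isotypes, their partners and coactivators, which drive those fatty acid genes, had 5 of 16 tested positive, of 18 listed, and a median of -0.10. The 2 members at an unadjusted p under 0.05 were lower. Rxrb, a retinoid X receptor that pairs with PPARs, read 1565, 1682, 1339 and 1396 in sham and 952, 1213, 975 and 1097 in TAC, without overlap, at -0.50 ± 0.14, 1.41-fold lower (adjusted p = 0.536). Esrra, an orphan receptor for mitochondrial genes, read 5456, 3721, 4485 and 3825 in sham and 3912, 3323, 2853 and 2975 in TAC, at -0.41 ± 0.16 with overlap. Ppara itself, intact in these mice, read 2308, 1968, 1546 and 2214 in sham and 2171, 1558, 1385 and 1921 in TAC. Its groups overlapped widely, at -0.20 ± 0.17, at -0.03 with the spike-in covariate and at -0.09 without TAC replicate 3.

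Glucose use and glycolysis had 18 of 28 tested positive, of 34 listed, and a median of 0.03. Pfkp, a phosphofructokinase isoform whose probe sets averaged 0.60, read 1519, 1187, 1524 and 1304 in sham and 1722, 1711, 1565 and 1700 in TAC, higher without overlap, at 0.28 ± 0.11. Ugp2, which makes the glucose donor for glycogen, differed by 0.28 ± 0.10 without overlap. The glucose transporter genes named here had negative differences, with Slc2a1 at -0.28 ± 0.16 and Slc2a12 at -0.38 ± 0.16, both with overlap. Slc2a1 was at -0.14 with the spike-in covariate, and the mean of its probe sets was -0.07.

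Genes of pyruvate use, the TCA cycle and anaplerosis were evenly split, with 18 of 37 tested positive, of 40 listed, and a median of 0.00, or 10 positive and -0.08 after quantile normalization. Mdh1, cytosolic malate dehydrogenase, differed by 0.35 ± 0.12 without overlap, by -0.19 after quantile normalization and by 0.16 with the spike-in covariate. Sdhb, a subunit of succinate dehydrogenase, differed by 0.34 ± 0.12, 0.05 and 0.14 in the same order. Me3, a mitochondrial malic enzyme, differed by -0.23 ± 0.09 with overlap.

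Amino acid and ketone metabolism contained the gene with the smallest p among those lower in TAC. The list had 17 of 44 tested positive, of 52 listed, with 2 higher and 5 lower at an unadjusted p under 0.05 (3.33% of all genes were lower) and a median of -0.04. Gpt2, the mitochondrial alanine transaminase that links alanine and pyruvate to glutamate, read 572, 451, 446 and 443 in sham and 289, 260, 191 and 199 in TAC. Every TAC array was far below every sham array, at -1.04 ± 0.17, 2.05-fold lower, with an adjusted p of 0.128. The difference was -1.12 after quantile normalization and -0.78 with the spike-in covariate. Its 3 dimmer probe sets gave -0.61 ± 0.26, -0.43 ± 0.21 and 0.12 ± 0.31.

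Mthfd1, of the cytosolic folate cycle, read 1205, 1506, 1370 and 1347 in sham and 1186, 1149, 742 and 1000 in TAC, lower without overlap, at -0.43 ± 0.15, with a probe set mean of -0.15. Bdh1, which oxidises the ketone body beta-hydroxybutyrate, was on the other side. It read 11438, 7993, 8573 and 10294 in sham and 13020, 11246, 14438 and 13112 in TAC, at 0.45 ± 0.15 with overlap in 1 array, and at 0.42 after quantile normalization (adjusted p = 0.585).

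Respiratory chain and ATP synthase subunits, among the brightest genes on the array, gave different counts under different normalizations. As deposited, 63 of 70 tested, of 76 listed, were positive, 13 were higher at an unadjusted p under 0.05 (4.30% of all genes), 21 were higher without overlap (2.64%) and the median was 0.12. After quantile normalization 18 were positive and the median was -0.03. With the spike-in covariate 38 were positive and the median was 0.00, and without TAC replicate 3 it was 0.11. Ndufa13, of complex I, differed by 0.42 ± 0.13, by 0.14 after quantile normalization and by 0.27 with the covariate. Atp5g3, of ATP synthase, differed by 0.41 ± 0.13, 0.12 and 0.20, and Uqcrb, of complex III, by 0.32 ± 0.11, -0.02 and 0.13.

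Cytosolic ribosomal proteins had 38 of 43 tested positive, of 77 listed, and a median of 0.12. At an unadjusted p under 0.05, 2 were higher, near the share of all genes (4.30%). Without overlap, 13 were higher (2.64% of all genes). The median was 0.02 after quantile normalization and 0.00 with the spike-in covariate. Rpl4 differed by 0.30 ± 0.10 without overlap, and by 0.16 and 0.18 under those settings. Mitochondrial ribosome and biogenesis genes, dimmer on the array, had 41 of 76 tested positive, of 78 listed, none at an unadjusted p under 0.05 in either direction and a median of 0.00. Ribosome biogenesis genes had 28 of 50 tested positive, of 52 listed, and a median of 0.02, and translation factors 18 of 26, of 30 listed, and 0.03. Utp18, a component of the small-subunit processome, was an exception within its list. It read 292, 326, 274 and 345 in sham and 198, 174, 143 and 237 in TAC, lower without overlap, at -0.74 ± 0.16 (adjusted p = 0.484). Eif2b5, a subunit of the exchange factor that recharges eIF2, differed by -0.28 ± 0.09 without overlap.

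**Figure D4:**
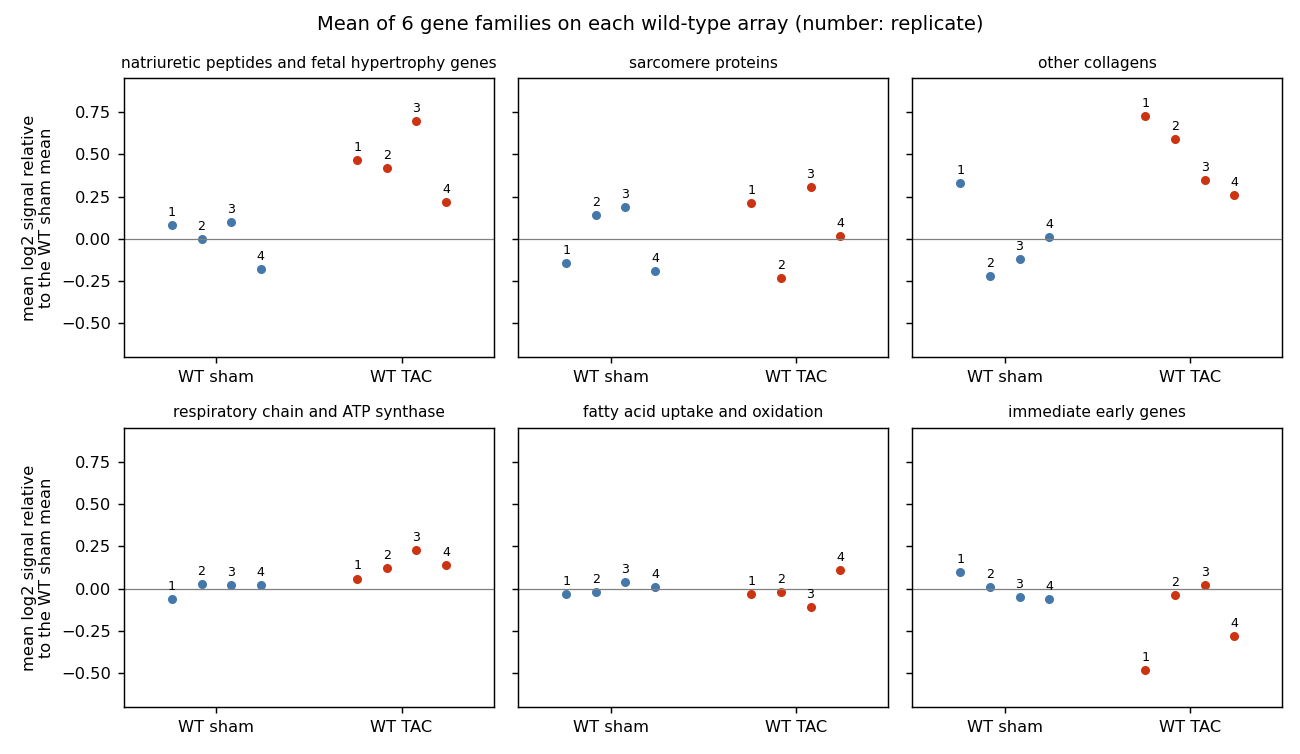
Mean log2 signal of the tested members of 6 gene families on each wild-type array, relative to the mean of the 4 WT sham arrays (y axis), with the replicate number above each point (blue, sham; red, TAC). The TAC arrays of the natriuretic and fetal genes stand at 0.22 to 0.70, above the sham arrays at -0.18 to 0.10. The sarcomere, other collagen, fatty acid and immediate early panels overlap. In the other collagens sham replicate 1, at 0.33, lies above TAC replicate 4, at 0.26.

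Among stress and early-response genes, the immediate early genes were mostly negative and the other lists were near 0. Immediate early genes, transcribed within minutes of a stimulus, had 6 of 24 tested positive, of 28 listed, and a median of -0.15. At an unadjusted p under 0.05, 4 were lower (3.33% of all genes) and none higher. With the spike-in covariate 10 were positive and the median was -0.05. On the TAC arrays the list's mean relative to sham was -0.48, -0.04, 0.02 and -0.28, so replicates 1 and 4 were low and the others were not. Nr4a3, an orphan nuclear receptor, read 1211, 1056, 1286 and 1008 in sham and 895, 650, 856 and 432 in TAC, lower without overlap, at -0.74 ± 0.25, although the mean of its probe sets gave 0.31. Nr4a1 read 7845, 6737, 5358 and 6859 in sham and 2175, 4610, 6779 and 4219 in TAC, at -0.69 ± 0.26 with overlap. The AP-1 subunit Fosl2 differed by -0.55 ± 0.26 with overlap.

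Protein folding and unfolded protein response genes had 17 of 41 tested positive, of 43 listed, with 2 higher and 2 lower at an unadjusted p under 0.05 and a median of -0.05. The inducible chaperone Hspa1a read 1669, 1170, 925 and 425 in sham and 216, 485, 424 and 111 in TAC. Its values varied widely within each group, and the difference was -1.82 ± 0.74 with overlap (adjusted p = 0.621). The small heat shock proteins of muscle were higher, Hspb6 by 0.30 ± 0.10 without overlap and Hspb7 by 0.25 ± 0.11 with overlap, and by 0.11 and 0.03 after quantile normalization and 0.14 and 0.13 with the spike-in covariate. Proteasome, ubiquitin ligase and autophagy genes had 25 of 46 tested positive, of 47 listed, with 2 higher at an unadjusted p under 0.05 and a median of 0.01. Their member Gabarapl1, an autophagosome protein, read 5641, 5044, 6042 and 5220 in sham and 7020, 6540, 7516 and 6606 in TAC, higher without overlap, at 0.34 ± 0.11, and at 0.16 with the covariate. Antioxidant and glutathione genes had 23 of 43 tested positive, of 48 listed, with 2 higher and 1 lower at an unadjusted p under 0.05 and a median of 0.02. The metal-binding metallothionein Mt1 read 21319, 21326, 18283 and 20529 in sham and 25792, 24594, 32076 and 22780 in TAC, higher without overlap. Its difference was 0.36 ± 0.17, and 0.10 with the spike-in covariate. Gpx8, a peroxidase of the endoplasmic reticulum, differed by 0.28 ± 0.11 with overlap (0.14 with the covariate), and the glutathione transferase Gstt1 by -0.41 ± 0.12 with overlap.

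Interferon response genes were mostly positive, 29 of 34 tested, of 39 listed, with a median of 0.17. At an unadjusted p under 0.05, 5 were higher (4.30% of all genes) and none lower. The median was 0.16 after quantile normalization, 0.12 with the spike-in covariate and 0.05, with 20 positive, when arrays were centred. Lgals3bp, a secreted scavenger receptor protein, read 1158, 1335, 1264 and 1379 in sham and 1778, 1452, 1983 and 1738 in TAC, without overlap, at 0.43 ± 0.12. Tap1, which carries peptides to class I molecules, read 231, 196, 192 and 205 in sham and 261, 263, 264 and 381 in TAC. It did not overlap either, at 0.49 ± 0.16, with TAC replicate 4 well above the rest, and its dimmer probe sets disagreed in sign. Psmb8, an immunoproteasome subunit, differed by 0.45 ± 0.16 with overlap. Outside that list, the interferon-inducible GTPase Irgm2, named for its small p, read 194, 180, 216 and 209 in sham and 302, 314, 334 and 289 in TAC, at 0.63 ± 0.14, 1.55-fold (adjusted p = 0.484).

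Cytokines, chemokines and acute phase genes had 18 of 29 tested positive, of 46 listed, and a median of 0.06 (-0.11 with the spike-in covariate), with 1 higher and 3 lower at an unadjusted p under 0.05. Cxcl1, a neutrophil-attracting chemokine, read 1568, 1574, 1254 and 1286 in sham and 676, 1169, 1068 and 663 in TAC, lower without overlap, at -0.71 ± 0.22, 1.63-fold lower (adjusted p = 0.580). Cxcl14 read 609, 542, 635 and 553 in sham and 473, 391, 421 and 326 in TAC, also lower without overlap, at -0.55 ± 0.14. Il15, a cytokine for lymphocytes that muscle also makes, differed by -0.39 ± 0.12 with overlap.

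Among angiogenic factors and receptors, 20 of 36 tested, of 45 listed, were positive, and the median was 0.02. Vegfa, the main vessel growth factor, read 3800, 4084, 3532 and 4777 in sham and 3078, 3379, 3257 and 2884 in TAC. All TAC arrays were lower, at -0.36 ± 0.16 (adjusted p = 0.637). Its other probe set gave 0.03 ± 0.23, and the difference was -0.23 with the spike-in covariate. Hbegf, an EGF family ligand released by stretched muscle cells, differed by 0.46 ± 0.19 with overlap. Adrenergic, angiotensin, endothelin and calcineurin signalling had 25 of 44 tested positive, of 55 listed, and a median of 0.02. Mapk14, the p38 alpha kinase, read 2326, 2422, 1964 and 2190 in sham and 1824, 1910, 1726 and 1804 in TAC, lower without overlap, at -0.29 ± 0.09. Hdac5, a histone deacetylase that restrains hypertrophy genes, differed by -0.24 ± 0.09 without overlap.

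Cardiac transcription factors had 11 of 27 tested positive, of 33 listed, and a median of -0.03, and cell cycle genes 23 of 30, of 47 listed, and 0.09. Circadian clock and output genes had 9 of 21 tested positive, of 22 listed, with 3 higher and 2 lower at an unadjusted p under 0.05 and a median of -0.02. The repressor Per1 read 448, 607, 618 and 672 in sham and 380, 332, 481 and 379 in TAC, at -0.57 ± 0.16, with only sham replicate 1 inside the TAC range. The output factor Hlf differed by -0.60 ± 0.24 (-0.38 for the mean of its probe sets) and Rorb by 0.59 ± 0.24, both with overlap. The labels give no time of day for the tissue.

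The largest differences without overlap were mostly in dim genes outside the families. Pam, the enzyme that amidates peptide hormones and is abundant in atrial granules, had the largest positive difference of all genes tested. It read 190, 499, 439 and 110 in sham and 1156, 1056, 799 and 1369 in TAC. The difference was 2.05 ± 0.49, 4.14-fold, with an adjusted p of 0.484, and 1.60 with the spike-in covariate. Chst15, a sulfotransferase for chondroitin chains, read 113, 117, 134 and 54.1 in sham and 373, 402, 175 and 280 in TAC, at 1.56 ± 0.40, and its second probe set gave 0.17 ± 0.78. The zinc finger gene Zfp493 differed by 1.27 ± 0.31, the ectonucleotidase Enpp3 by 1.21 ± 0.51, the selenocysteine elongation factor Eefsec by 1.12 ± 0.37 and the histone demethylase Kdm4b by 1.01 ± 0.39. A second probe set of Zfp493 gave 0.12 ± 0.91. In Enpp3, Eefsec and Kdm4b a single sham array was far below the others, at 17.1, 50.2 and 41.6.

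Srpx2, a secreted sushi-repeat protein, and Aqp8, a water channel, were higher as well. Srpx2 read 215, 206, 164 and 86.5 in sham and 292, 362, 273 and 279 in TAC, at 0.92 ± 0.25. Aqp8 read 424, 338, 526 and 212 in sham and 689, 662, 775 and 565 in TAC, at 0.91 ± 0.23. All TAC arrays exceeded all sham arrays in both genes, and the adjusted p was 0.484 for each. Sham replicate 4 was the lowest sham array in both, as it was for Pam, Chst15 and Eefsec.

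On the lower side, the sorting receptor Sorcs2 read 406, 325, 403 and 288 in sham and 128, 58.9, 137 and 164 in TAC. Every TAC array was below every sham array, at -1.62 ± 0.40, 3.08-fold lower (adjusted p = 0.484). Kcne4, an accessory subunit that inhibits potassium channels, read 449, 374, 302 and 312 in sham and 288, 173, 99.7 and 42.1 in TAC, at -1.56 ± 0.42. The keratin Krt8 differed by -1.04 ± 0.50, the transcriptional repressor Bcl6 by -0.78 ± 0.25, the glycogen-targeting phosphatase subunit Ppp1r3b by -0.80 ± 0.29 and atrophin, Atn1, by -0.86 ± 0.20. Krt8 was at -0.67 without TAC replicate 3, and another of its probe sets gave 0.72 ± 0.34. The probe sets of Bcl6 disagreed in size, since the second gave -0.01 ± 0.32, and Ppp1r3b was at -0.27 with the spike-in covariate. Of the genes with the smallest p, the folate enzyme Aldh1l1 differed by -0.75 ± 0.16, though a second probe set gave 0.61 ± 0.78, and the netrin receptor neogenin, Neo1, by -0.64 ± 0.15. Neo1 read 1653, 1558, 1509 and 1260 in sham and 1046, 1080, 654 and 1134 in TAC, and was at -0.45 without the lowest array, TAC replicate 3, and at -0.30 for the mean of its probe sets.

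The same operation in the knockout gave calls where the wild type gave none. In KO hearts 173 genes were called higher (1.58%) and 107 lower (0.980%) in the same fit, and the median size of a difference over all genes was 0.17 against 0.14 in wild type. The KO and WT differences come from separate arrays, but the fit estimates the spread of each gene from the arrays of both genotypes. A gene with a small spread can thus be favoured for a KO call, and for a small p or no overlap in wild type. The shares at an unadjusted p under 0.05 or without overlap are therefore not independent of the KO calls. The spread does not enter the sign of a wild-type difference. Of the 173 genes called higher in the knockout, 148 (85.5%) also had a positive difference in wild type, where 50.0% of all genes did. In wild type 47 of them (27.2%) were higher at an unadjusted p under 0.05, against 4.30% of all genes, and none was lower. Of the 173, 36 were higher without overlap, where 2.64% of all genes were. Their median difference was 0.21 in wild type and 0.75 in the knockout. Of the 107 called lower, 87 (81.3%) were negative in wild type, 23 were lower at an unadjusted p under 0.05 (21.5%, against 3.33%), 2 were higher, and the medians were -0.16 and -0.63. With only the WT arrays in the wild-type fit, 46 of the 173 (26.6%) were higher and 18 of the 107 (16.8%) lower at an unadjusted p under 0.05. The KO lists were still chosen with the shared spread, so that setting removes only a part of the dependence. Since the knockout values chose these genes, their larger size there is not a finding. With arrays centred on their medians, 117 (67.6%) and 102 (95.3%) of them kept the sign. Centring lowers the differences of all genes, so it favours the negative sign in both lists.

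**Figure D5:**
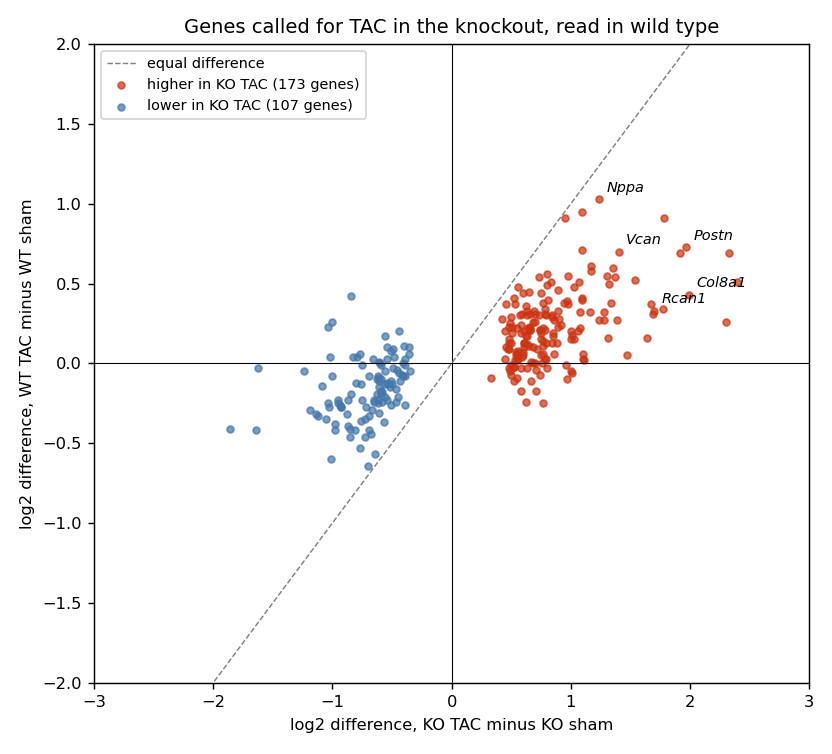
Genes called for TAC in the knockout, with the log2 difference in KO hearts on the x axis and in WT hearts on the y axis (red, 173 genes higher in KO TAC; blue, 107 lower). The dashed line marks equal differences. Of the red points 148 lie above 0 in wild type and of the blue points 87 lie below 0.

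The test of the difference itself, knockout response minus wild-type response, called no gene (0%), with 1128 genes at an unadjusted p under 0.05 (10.3%) and a smallest adjusted p of 0.125. Nppa stood at 1.03 in wild type and 1.24 in the knockout, a difference of 0.22 ± 0.22 (SE), about the size of its error. Genes with a smaller estimate in wild type included Col8a1, at 0.43 against 1.99 (difference 1.56, adjusted p = 0.125), and Rcan1, at 0.33 against 1.70 (difference 1.36, adjusted p = 0.125). Postn stood at 0.73 against 1.97, with an adjusted p of 0.229 for the difference of 1.24. Ltbp2 stood at 0.26 against 2.30 (adjusted p = 0.231), Ccn2 at 0.34 against 1.77 (0.290) and Col1a2 at 0.38 against 1.34 (0.231).

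Several genes had estimates of opposite sign in the 2 genotypes. Efemp1 was at 0.42 in wild type and -0.84 in the knockout (adjusted p = 0.125 for the difference), Irgm2 at 0.63 and -0.37 (0.125) and Hadh at 0.20 and -0.44 (0.125), where the wild-type sign turned after quantile normalization. Pam was at 2.05 in wild type and -0.18 in the knockout, a difference of -2.23 with an adjusted p of 0.348. Gpt2 was negative in both, at -1.04 and -0.34 (0.382). These genes were named through their wild-type values, which also enter the difference. The size of these gaps and the opposite signs are therefore not findings. As deposited, the bright muscle and mitochondrial families had opposite medians as well, 0.26 in wild type and -0.14 in the knockout for sarcomere proteins and 0.12 and -0.22 for the respiratory chain. After quantile normalization the wild-type medians were 0.06 and -0.03. The knockout medians under that setting are not given here, so the genotypes cannot be compared there. In these same arrays the spike-in signal was higher in WT TAC than in WT sham, whereas it went from 12.68 to 13.16 in KO sham to 12.28 to 12.95 in KO TAC, and its part in those medians was not tested beyond the covariate fit.

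The defining markers of cardiac muscle were all measured in these samples, as the label of left ventricle requires. All 18 cardiomyocyte markers passed the brightness filter, and none was at the floor of the signal scale on all 8 wild-type arrays. Of these, 17 were positive and 11 higher at an unadjusted p under 0.05 (4.30% of all genes), with a median of 0.27 (0.04 after quantile normalization). Their summed signal was 882426 to 1040785 in sham and 1081120 to 1440007 in TAC, without overlap. Fibroblast markers had 12 of 15 tested positive and a median of 0.17, and a summed signal of 75616 to 86912 in sham and 74901 to 97065 in TAC. In whole tissue, a change in the number of cells of a type and a change in RNA per cell cannot be told apart. Endothelial markers had 11 of 16 positive and a median of 0.12, smooth muscle and pericyte markers 9 of 12 and 0.12, and macrophage markers 12 of 18 and 0.05. Of the remaining lists few members were tested, since some were not measured by a single-gene probe set and others were too dim. Only 4 of 10 erythroid markers were measured, so the rest were not judged on brightness. Tested were 2 of 15 lymphocyte, 4 of 11 neutrophil, 1 of 10 erythroid and 3 of 16 skeletal muscle markers. Further lists had 3 of 12 adipocyte, 4 of 10 epicardial, 5 of 12 Schwann cell and neuronal, and 4 of 12 valve and cartilage-like markers tested. The medians of all these lists were -0.10, 0.10, -0.62, 0.40, 0.12, 0.11, -0.01 and -0.21 in that order.

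Atrial markers varied from array to array within both groups. Of the 8 tested, of 11 listed, only 2 were positive, and the median was -0.45. The list includes Nppa, which was higher in TAC. Myl7, Sln and Myl4, chosen after their values were seen, are an atrial light chain, an atrial regulator of the calcium pump and a second atrial light chain. Myl7 read 446, 3427, 1970 and 74.4 in sham and 785, 12.5, 212 and 41.7 in TAC, at -2.83 ± 1.44, the largest negative difference of all genes tested (adjusted p = 0.671). Sln read 158, 1598, 870 and 7.8 in sham and 380, 5.8, 34.6 and 7.2 in TAC, and Myl4 read 721, 3103, 1890 and 333 in sham and 908, 235, 474 and 326 in TAC. Sln differed by -2.61 ± 1.53 and Myl4 by -1.35 ± 0.79, but their second probe sets gave 0.77 ± 0.60 and 0.23 ± 0.69. Sham replicates 2 and 3 and TAC replicate 1 were high in all 3 genes, and the groups overlapped. Nppa did not follow that order, since its highest arrays were TAC replicates 2 and 3, where Myl7 read 12.5 and 212. The sarcomere and calcium-handling lists contain some of these atrial genes, and their low extremes, -2.83 and -2.61, are Myl7 and Sln.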

How the data were processed

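RNA from mouse left ventricles was hybridised to 16 Affymetrix 430 2.0 arrays, 4 per group. The values used are the deposited intensity of each probe set, which the submitters' processing notes say came from GCOS 1.4. The sources used here give no further step of the authors. The 2nd to 98th percentile trimmed mean is 500 on every array. Of 45101 probe sets, 64 are controls, 34945 name 1 gene in the platform annotation, 932 several and 9160 none, and 34741 of the single-gene ones matched RefSeq.

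Signals were floored at 11.9 (the 10th percentile) and log2 transformed. The brightest probe set represented each of 18193 genes. The 40% of genes with the lowest mean over all arrays were left out, so 10916 were tested. A gene can pass that filter through its signal in 1 group. A fit in limma 3.58.1 (R 4.3.3) with 1 coefficient per group over all 16 arrays gave differences, two-sided p-values and Benjamini-Hochberg adjustment. The code was tested on simulated data.

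Genes named are the 12 largest rises and 12 largest falls without overlap, the 10 smallest p, the 3 smallest p in each family and a panel of 30 genes. The text describes a part of these 150 genes, and 2 unnamed transcripts were skipped among the rises. The members and lists were chosen with earlier results of these data known. Alternatives were other normalizations, floors, filters, probe set rules, variance models, array weights, sample sets, a replicate block, a spike-in covariate and leaving out each wild-type array.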

Additional observations from a re-analysis of the deposited data

Results flagged for a closer look

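Among 228 groups of 4 wild-type arrays checked, for the 114 genes described, 8 held an array whose gap to its nearest neighbour took up an unusually large share of the group's range, past the 95% critical value of Dixon's test. Chance gives about 1 in 20 for independent groups that were not selected. The genes described share the same 8 arrays, and many were chosen for a small p or for groups without overlap. The count of 8 in 228 can therefore not be set against that rate, and none of the 8 is read as a finding. The shares are on the log2 scale, and the signals beside them are as deposited. In 3 of the 8, sham replicate 1 was the highest: Col1a1 (share 0.87, 1445 against 802 to 865), Anxa2 (0.92, 5826 against 4845 to 4919) and Gpt2 (0.93, 572 against 443 to 451). TAC replicate 3 was the lowest in another 3: Smad7 (0.83, 140 against 360 to 436), Pfkp (0.87, 1565 against 1700 to 1722) and Neo1 (0.85, 654 against 1046 to 1134). TAC replicate 4 was the highest for Ltbp2 (0.93, 310 against 167 to 175) and Tap1 (0.97, 381 against 261 to 264).

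For Hadh, all wild-type TAC arrays were above and all knockout TAC arrays below their sham arrays. Its difference was 0.20 in wild type and -0.44 in the knockout, and the test of the difference gave -0.64 with an adjusted p of 0.125 in limma, which did not pass. The wild-type value was -0.10 after quantile normalization, -0.03 for the mean of probe sets and -0.08 without the less specific probe sets.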

How the results depend on the processing

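The count of called genes was 0 in wild type. It was 1 with 60% of genes left out and 1 with trend and robust (Nppa in both), and 0 to 2 when each wild-type array was left out in turn: 1 without TAC replicate 3 (Shisa7) and 2 without sham replicate 1 (Nppa and Dlgap3), Shisa7 and Dlgap3 being named after their values were seen. The 469 genes higher at an unadjusted p under 0.05 became 300 with 60% left out, 721 with no filter, 139 with centred arrays and 297 with the spike-in covariate, and 357 to 482 with an array left out. The 363 lower became 641 with centred arrays and 278 to 456 with an array left out. The test between genotypes called 13 genes with trend and robust, 1 with the mean of probe sets, 1 with no filter, and 0 to 1 with an array left out (1 without TAC replicate 1). The cause of these shifts was not tested. The replicate numbers did not pair the samples (correlations of same-numbered arrays 0, -0.02, -0.19 and 0.03), and with the replicate block 0 genes were called, 470 were higher and 352 lower. Of the 114 genes described, 104 kept their direction in every alternative run that tested them. Some were not tested in all runs, such as Vcan, Col4a3 and Zfp493 under the mean of probe sets. Under the mean of probe sets Myh6 was at -0.05, Atp2a2 at 0.00, Kcnj3 at 0.17, Anxa2 at -0.15, Hadh at -0.03 and Nr4a3 at 0.31. Under quantile normalization Myh6 was at -0.08, Fabp3 at -0.10, Hadh at -0.10, Mdh1 at -0.19 and Uqcrb at -0.02. Without the less specific probe sets Fmod was at 0.16 and Hadh at -0.08. The medians of the 37 families changed sign in 47 of 777 values, 13 of them under centred arrays. Dim probe sets, without detection calls, limit what the smallest signals show.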
